A study of Mus musculus with 6 samples.

Results

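Tubulins and a tubulin-binding regulator were followed in cultured mouse Sertoli cells, the somatic cells that line the seminiferous tubule and nurse the germ cells. The genes were the 6 beta-tubulin genes Tubb3, Tubb2a, Tubb2b, Tubb4b, Tubb5 and Tubb6, the 3 alpha-tubulin genes Tuba1a, Tuba1b and Tuba1c, and Stmn1, 10 of the 29275 genes in the deposited tables, each found by the Ensembl identifier that pairs with its symbol. RNA sequencing was done on 3 libraries labelled Arhgef15 cKO, a conditional knockout made in Sertoli cells, and on 3 wild-type (WT) libraries. Both groups were primary Sertoli cells grown in serum with epidermal growth factor, and neither received a drug. The age and strain of the mice, the Cre driver, the deleted exons and the number of animals behind a culture are details that the sources used here do not state. The labels call the replicates biological without saying whether they came from separate animals, so p-values measure only the spread between these libraries, which may be technical in part.

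Microtubules are built from dimers of an alpha- and a beta-tubulin chain, and each chain is encoded by several genes whose products, called isotypes, differ mostly in a short acidic tail. In Sertoli cells, bundles of microtubules run along the length of the cell, support its columnar shape and carry spermatids through the epithelium. Cells adjust their tubulin mRNA to the amount of free tubulin: when dimers are in excess, the factor TTC5 recognises the first residues of the nascent chain on the ribosome and the mRNA being translated is degraded. Stathmin, the product of Stmn1, binds free tubulin dimers and favours the shrinking of microtubules.

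The start of the coding sequence is shown because it encodes the residues that this autoregulation reads. Coding sequences were taken from GENCODE M21 (GRCm38), 5′ to 3′, and capitals mark the first 4 codons. None is printed for Tubb6.
Tubb3: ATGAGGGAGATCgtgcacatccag
Tubb2a: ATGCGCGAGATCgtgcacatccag
Tubb2b: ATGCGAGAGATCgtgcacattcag
Tubb4b: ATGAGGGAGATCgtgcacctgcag
Tubb5: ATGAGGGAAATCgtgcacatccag
Tuba1a: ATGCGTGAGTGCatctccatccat
Tuba1b: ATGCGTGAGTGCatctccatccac
Tuba1c: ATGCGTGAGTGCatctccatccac
The 3 alpha-tubulin genes share these 12 bases exactly. The beta-tubulin genes shown encode the same 4 residues, and only the codons between ATG and ATC vary. Tubb3 and Tubb4b share all 12 bases.

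The last 75 coding bases of the beta genes, stop codon included, hold the isotype-specific tail. Capitals mark bases that did not match Tubb5 in an alignment of the whole coding sequences.
Tubb5: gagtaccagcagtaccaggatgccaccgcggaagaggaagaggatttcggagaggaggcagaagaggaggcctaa
Tubb4b: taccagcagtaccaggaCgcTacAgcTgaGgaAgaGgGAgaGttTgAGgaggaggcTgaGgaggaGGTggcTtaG
Tubb2a: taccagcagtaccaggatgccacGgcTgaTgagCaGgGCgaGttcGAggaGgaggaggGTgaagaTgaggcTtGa
Tubb2b: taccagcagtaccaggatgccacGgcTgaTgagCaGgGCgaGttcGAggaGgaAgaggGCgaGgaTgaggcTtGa
Tubb3: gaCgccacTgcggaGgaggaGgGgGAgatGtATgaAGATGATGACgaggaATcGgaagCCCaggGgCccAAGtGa
Tubb3 differed from Tubb5 at 32 of these bases, Tubb4b at 20, Tubb2b at 18 and Tubb2a at 16.

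Likeness between the genes limits how well fragments can be assigned to them. Tubb2a and Tubb2b were 96.5% identical over their coding sequences, and the 3 alpha genes were 97.1% to 98.3% identical. All other pairs of beta members lay between 80.2% and 86.0%. Of the 50-base words in the annotated transcripts of Tubb3 and of Tubb6, 0% occurred in a transcript of another gene, and the share was 0.1% for Tubb5. It was 75.5% for Tuba1a, 75.1% for Tuba1b, 52.7% for Tuba1c, 49.6% for Tubb2a, 41.3% for Tubb4b, 36.9% for Tubb2b and 18.9% for Stmn1. The sources used here state neither the read length nor how fragments with several matches were counted. Hence the split among Tuba1a, Tuba1b and Tuba1c and between Tubb2a and Tubb2b is uncertain, while the levels of Tubb3, Tubb5 and Tubb6 rest almost wholly on words of their own.

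Values are FPKM, fragments scaled to exon length and to library depth, so that levels can be compared between genes. Depth, estimated from the spacing of low values, was 16790000 to 20320000 fragments per library. The 10 genes rested on 234 to 60493 fragments each. Arhgef15 was listed at 0.501, 0.322 and 0.338 FPKM in cKO replicates 1, 2 and 3, against 0.123, 0.0237 and 0.349 FPKM in WT replicates 1, 2 and 3. Its listed values were thus not lower in the libraries labelled cKO, but they were below 1 FPKM throughout and the groups overlapped. They rested on 35 to 63 fragments in cKO and on 3 to 46 in WT libraries (limma over all genes, adjusted p = 0.903). Values per gene do not show which exons the fragments came from. WT replicate 3 stood apart from its own group. Its correlation across genes was 0.860 and 0.898 with the other WT libraries, against 0.921 to 0.947 with the cKO libraries, and values without it are given where they matter. Of the 22 Sertoli markers, among them the transcription factors Sox9 and Wt1, 19 passed the filter of at least 1 FPKM in at least 3 libraries. Their summed level was 627 to 871 FPKM in cKO libraries, and it was 357, 357 and 880.1 FPKM in WT replicates 1, 2 and 3. The secreted chaperone gene Clu gave much of that sum, at 450.3, 335 and 452 FPKM in cKO and at 107, 79.2 and 476 FPKM in WT libraries. Not all markers ran this way: Inhbb, an inhibin subunit gene, was at 18.1, 15.4 and 32.6 FPKM in cKO and at 65.7, 85.4 and 6.04 FPKM in WT libraries.

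Neither Stmn1 nor any of the 9 tubulin genes passed the genotype test. All 10 genes were in the filtered set, and 0 of 10 were called (limma on log2(FPKM + 1), Benjamini-Hochberg adjusted p from 0.755 to 0.988 over 12284 genes), where 0.0163% of all tested genes were called. At an unadjusted p under 0.05 the count was also 0 of 10, against 6.81% of tested genes (3.87% higher and 2.94% lower in cKO). The cKO and WT values overlapped in all 10 genes, whereas the groups did not overlap in 11.3% of tested genes (cKO higher in 6.28% and lower in 5.01%). The median log2 difference, cKO minus WT, was -0.11 for the 10 genes and 0.08 for all tested genes. A missed threshold does not show equal levels, since the SE of these differences ran from 0.27 to 0.49 on the log2 scale.

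**Figure D1:**
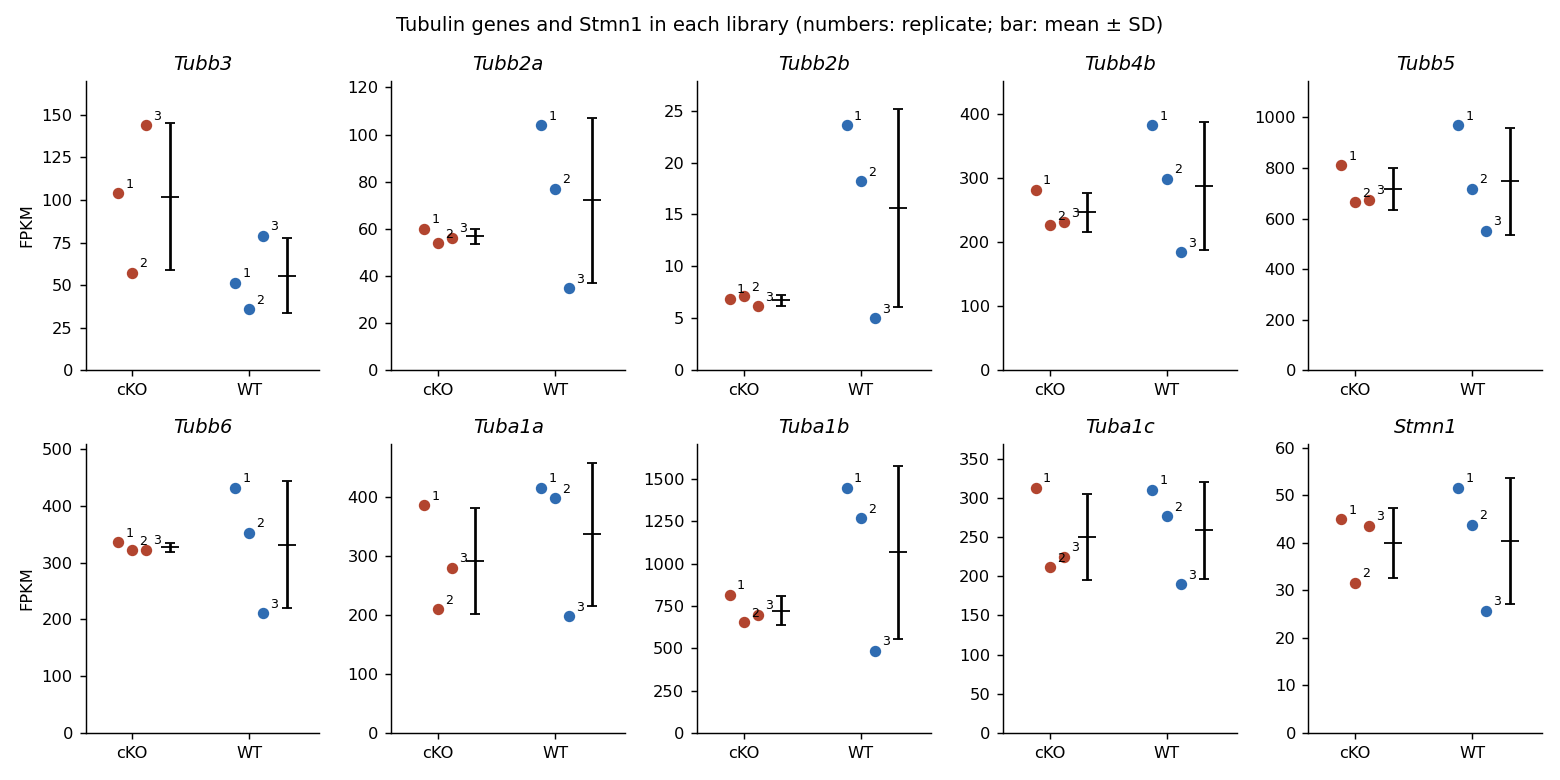
FPKM of each gene in the 3 cKO libraries (red) and the 3 WT libraries (blue), with the replicate number beside each point and the group mean ± SD in black. In 9 of 10 panels WT replicate 3 is the lowest library, and Tubb3 is the exception.

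Tubb5 was the most abundant beta-tubulin gene in every library. Its product is the broadly expressed class I beta chain. It was at 811, 664 and 675 FPKM in cKO replicates 1, 2 and 3, against 969.7, 718 and 552 FPKM in WT replicates 1, 2 and 3. The cKO values thus lay inside the WT range, and the means were 717 ± 82.0 FPKM in cKO and 747 ± 210.3 FPKM in WT libraries (SD, n = 3 each). The log2 difference was -0.03 (SE 0.27, limma, adjusted p = 0.987), and its sign turned with quantile normalization.

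Tubb6, a broadly expressed class V beta-tubulin gene that is prominent outside the nervous system, was at 336, 322 and 323 FPKM in cKO libraries, against 432, 353 and 211 FPKM in WT libraries. The cKO replicates lay within a narrow range, 327 ± 7.97 FPKM, and the WT replicates spread on both sides of it, 332 ± 112 FPKM. Tubb4b, whose product is used widely and is a main beta chain of cilia and flagella, was at 282, 227 and 231 FPKM in cKO and at 383, 299 and 184 FPKM in WT libraries. Here WT replicates 1 and 2 were the highest libraries and WT replicate 3 the lowest.

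Tubb2a and Tubb2b are neighbours on chromosome 13 and are best known from nerve cells. Tubb2a was at 60.0, 54.0 and 56.2 FPKM in cKO replicates 1, 2 and 3, against 104, 77.1 and 34.8 FPKM in WT replicates 1, 2 and 3. Tubb2b was at 6.90, 7.14 and 6.16 FPKM in cKO and at 23.6, 18.2 and 5.02 FPKM in WT libraries. In both genes the cKO libraries were close together, WT replicates 1 and 2 lay above all of them and WT replicate 3 lay below all of them. The Tubb2b means were 6.74 ± 0.511 FPKM in cKO and 15.6 ± 9.53 FPKM in WT libraries (SD, n = 3 each), a log2 difference of -0.87 (SE 0.49, limma, adjusted p = 0.781, exact two-sided permutation p = 0.400, where 3 against 3 cannot go below 0.1). Without WT replicate 3, Tubb2b was the 1 gene of the 10 that passed, at a log2 difference of -1.49 (limma, adjusted p = 0.0174, against a range of 0.0174 to 1.00 over all alternatives). In that fit 3.89% of all tested genes were called, 2.47% as higher and 1.42% as lower.

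Tubb3 encodes the class III beta chain. It is widely used as a marker of nerve cells, and in the testis it is found in Sertoli cells, where androgen regulates it. It was at 104, 57.2 and 144 FPKM in cKO replicates 1, 2 and 3, against 51.4, 35.7 and 79.0 FPKM in WT replicates 1, 2 and 3. The 2 highest libraries were cKO and the 2 lowest WT, but WT replicate 3 lay above cKO replicate 2. The means were 102 ± 43.3 FPKM in cKO and 55.4 ± 22.0 FPKM in WT libraries (SD, n = 3 each). The log2 difference of 0.84, with an SE of 0.40, had the lowest p of the 10 genes and did not pass (limma, unadjusted p = 0.0732, adjusted p = 0.755, exact two-sided permutation p = 0.200). It stayed positive with each library left out, from 0.55 without cKO replicate 3 to 1.20 without cKO replicate 2, and adjusted p was 0.152 to 1.00 over all alternatives. Tubb3 was also the 1 gene of the 10 that was not lowest in WT replicate 3.

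Nerve cell markers other than Uchl1 were at low levels. Of the 14 genes on that list, 1 passed the filter. This was Uchl1, a ubiquitin hydrolase that spermatogonia and Sertoli cells also express, at 138, 94.0 and 111 FPKM in cKO libraries, against 40.5, 24.9 and 174 FPKM in WT libraries. The summed list was at 95.5 to 140.1 FPKM in cKO and at 25.6 to 176 FPKM in WT libraries, and 0 of its genes were at 0 in all 6 libraries. Rbfox3, a nuclear protein that defines mature neurons, was listed at 0.124, 0.0205 and 0.0941 FPKM in cKO libraries, against 0.0458, 0.0441 and 0.110 FPKM in WT libraries. Nefm, a neurofilament chain, was the 1 gene on the list whose groups did not overlap, at 0.357, 0.639 and 0.413 FPKM in cKO libraries, against 0.138, 0.106 and 0.136 FPKM in WT libraries (40 to 62 fragments in cKO and 12 to 16 in WT libraries). It was below the filter and did not pass in the fit over all genes (limma, adjusted p = 0.903). All cKO libraries lay above all WT libraries in 6.28% of tested genes, a share that was not computed for genes below the filter. Uchl1 and the summed Sertoli markers, like Tubb3, were lowest in WT replicates 1 and 2, and their part in the Tubb3 values was not tested.

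The alpha-tubulin genes Tuba1a, Tuba1b and Tuba1c lie on chromosome 15. Tuba1b, the broadly expressed alpha chain of dividing and resting cells, was at 816, 655 and 699 FPKM in cKO replicates 1, 2 and 3, against 1448, 1269.6 and 486 FPKM in WT replicates 1, 2 and 3. WT replicates 1 and 2 were well above the cKO libraries and WT replicate 3 below them. The means were 723 ± 83.3 FPKM in cKO and 1068 ± 512 FPKM in WT libraries (SD, n = 3 each), a log2 difference of -0.42 (SE 0.42, limma, adjusted p = 0.884). Without WT replicate 3 it was -0.91 (limma, adjusted p = 0.0627) and without WT replicate 1 it was -0.13 (limma, adjusted p = 0.990), and neither passed.

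Tuba1a, the alpha chain that is prominent in developing neurons, was at 386, 209 and 279.9 FPKM in cKO libraries, against 415, 397 and 198 FPKM in WT libraries. Tuba1c, a further broadly expressed alpha gene, was at 313, 212 and 225 FPKM in cKO libraries, against 310.4, 277 and 189.9 FPKM in WT libraries. Among the 10 genes Tuba1c varied least, with a highest library 1.65 times the lowest, while Tubb2b varied most, at 4.69 times.

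Stmn1 was at 45.0, 31.6 and 43.6 FPKM in cKO replicates 1, 2 and 3, against 51.6, 43.8 and 25.7 FPKM in WT replicates 1, 2 and 3. The group means were close, 40.0 ± 7.37 FPKM in cKO and 40.4 ± 13.3 FPKM in WT libraries (SD, n = 3 each), and the log2 difference was 0.03 (SE 0.30, limma, adjusted p = 0.988, sign turned with median-ratio scaling). Its relatives Stmn2, Stmn3 and Stmn4, which are largely neuronal, all fell below the filter, at a summed 0.0417 to 0.378 FPKM in cKO and 0.00915 to 0.575 FPKM in WT libraries.

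WT replicate 3 was the lowest of the 6 libraries in 9 of 10 genes, a position it held in 20.3% of all tested genes. The count was 9 under median-ratio scaling and under quantile normalization as well, but the share over all tested genes was not computed under these scalings. WT replicate 1 was the highest library in 8 of 10 genes. WT replicates 1 and 2 both exceeded the other 4 libraries in 6 genes, namely Tubb2a, Tubb2b, Tubb4b, Tubb6, Tuba1a and Tuba1b. How often all tested genes showed these orders was not computed, so the counts of 8 and 6 have no background share beside them. Leaving out single WT libraries moved the genotype differences of these 6 genes. The log2 difference of Tubb2a was -0.21 with all libraries, -0.65 without WT replicate 3 and 0.12 without WT replicate 1.

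**Figure D2:**
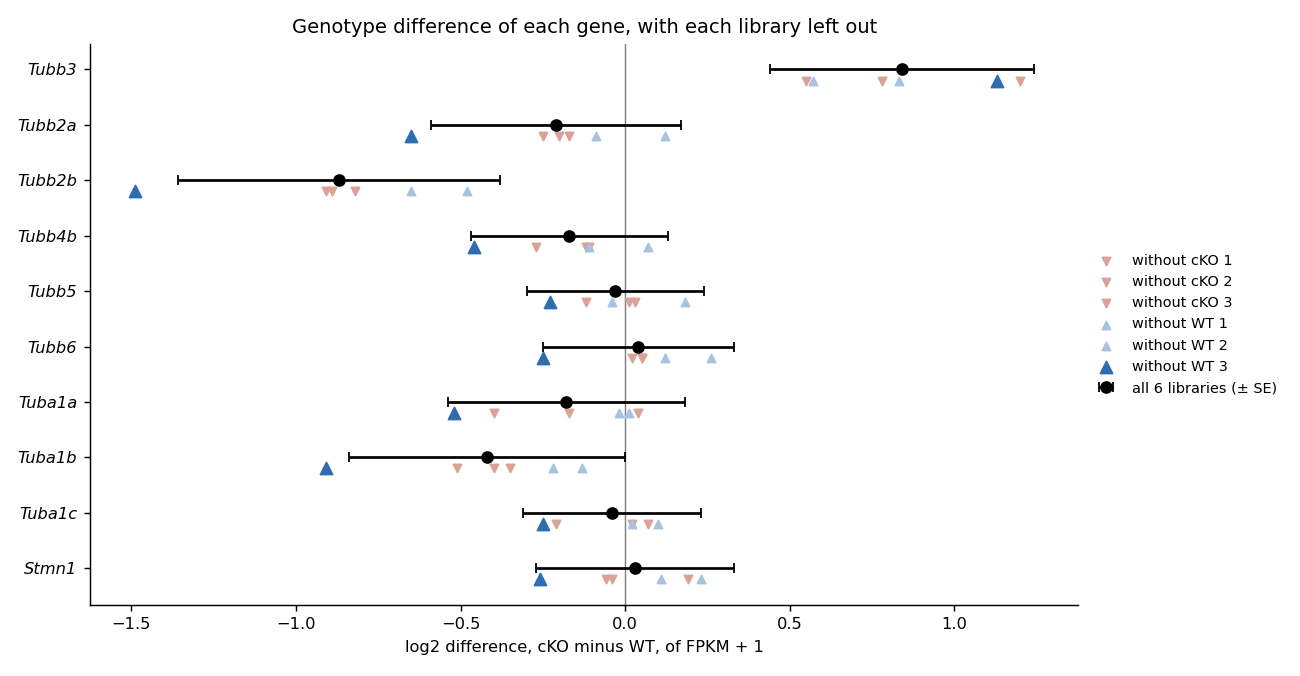
Log2 difference, cKO minus WT, of each gene with all 6 libraries (black, ± SE) and with 1 library left out at a time (triangles). Leaving out WT replicate 3 (large blue triangles) moves every gene other than Tubb3 to lower values, as far as -1.49 for Tubb2b.

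In order of mean FPKM over the 6 libraries the genes ran Tuba1b (896), Tubb5 (732), Tubb6 (329.6), Tuba1a (314), Tubb4b (268), Tuba1c (255), Tubb3 (78.5), Tubb2a (64.4), Stmn1 (40.2) and Tubb2b (11.2). This order held in 6 of 6 libraries for the steps from Tubb5 to Tubb6, from Tuba1c to Tubb3, from Tubb2a to Stmn1 and from Stmn1 to Tubb2b. Tuba1b exceeded Tubb5 in 4 of 6 libraries. The genes from Tubb6 to Tuba1c also changed places, each neighbour leading in 4 or 5 libraries, and Tubb3 exceeded Tubb2a in 4.

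The pooled tubulin message differed more between WT libraries than between genotypes. Summed over the 9 tubulin genes it was 3116, 2407 and 2640.0 FPKM in cKO replicates 1, 2 and 3, against 4137, 3444 and 1939.6 FPKM in WT replicates 1, 2 and 3. The cKO range thus lay within the WT range, and the difference of mean log2 values was -0.16 (exact two-sided permutation p = 0.700, n = 3 each). The beta sum averaged 1456 ± 136 FPKM in cKO and 1510.2 ± 449 FPKM in WT libraries, with a difference of mean log2 values of -0.01 (exact permutation p = 1.00, n = 3 each). The alpha sum averaged 1265 ± 226 FPKM in cKO and 1664 ± 693 FPKM in WT libraries, with a difference of mean log2 values of -0.30 (exact permutation p = 0.500, n = 3 each). It was -0.72 without WT replicate 3 and -0.06 without WT replicate 1. In bulk RNA, fewer cells of a type and less RNA per cell cannot be told apart.

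The alpha sum divided by the beta sum was 0.946, 0.807 and 0.839 in cKO replicates 1, 2 and 3, against 1.11, 1.29 and 0.820 in WT replicates 1, 2 and 3. Among the 6 libraries, the sum of Tuba1a, Tuba1b and Tuba1c exceeded that of the beta members only in WT replicates 1 and 2. Other alpha genes are not in this ratio. In cKO replicate 1, Tuba3a was at 108, Tuba3b at 117 and Tuba4a at 28.7 FPKM. How fragments with several matches were counted is not stated, and this may affect the alpha sum. The genotype difference in this ratio was -0.210 (exact two-sided permutation p = 0.300, n = 3 each).

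Isotype shares were computed within each library, so they do not depend on scaling between libraries. None of the 9 shares passed the exact permutation test, which cannot reach 0.05 with 3 against 3 (two-sided p from 0.200 to 0.800, Benjamini-Hochberg adjusted 0.514 to 0.800 over 9 shares). Tubb5 held a steady share of the beta sum, 50.7%, 49.9% and 47.1% in cKO replicates 1, 2 and 3, against 49.4%, 47.8% and 51.8% in WT replicates 1, 2 and 3. Tubb6 held 21.0% to 24.2% in cKO and 19.8% to 23.5% in WT libraries. Tubb4b held 16.1% to 17.6% in cKO and 17.2% to 19.9% in WT libraries. The minor beta genes differed more between libraries, relative to their level.

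Tubb3 made up 6.52%, 4.29% and 10.0% of the beta sum in cKO replicates 1, 2 and 3, against 2.62%, 2.37% and 7.42% in WT replicates 1, 2 and 3. All 3 cKO libraries lay above WT replicates 1 and 2, and WT replicate 3 lay among the cKO libraries. The means were 6.94 ± 2.88% in cKO and 4.14 ± 2.84% in WT libraries, a difference of 2.80 percentage points (SD, n = 3 each, exact two-sided permutation p = 0.300, adjusted p = 0.514). Tubb2b ran the other way, at 0.431%, 0.536% and 0.429% in cKO libraries, against 1.20%, 1.21% and 0.471% in WT libraries. Tubb2a held 3.75% to 4.06% in cKO libraries, against 5.32%, 5.14% and 3.27% in WT libraries.

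Among the alpha genes, Tuba1b made up 53.9%, 60.9% and 58.1% of the sum in cKO replicates 1, 2 and 3, against 66.6%, 65.3% and 55.6% in WT replicates 1, 2 and 3. Tuba1c made up 20.7%, 19.7% and 18.7% in cKO libraries, against 14.3%, 14.2% and 21.7% in WT libraries. WT replicates 1 and 2 thus had the highest Tuba1b and the lowest Tuba1c shares, and WT replicate 3 sided with the cKO libraries. Tuba1a held 19.4% to 25.5% in cKO and 19.1% to 22.6% in WT libraries. These 3 shares carry the uncertainty of the near-identical coding sequences.

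**Figure D3:**
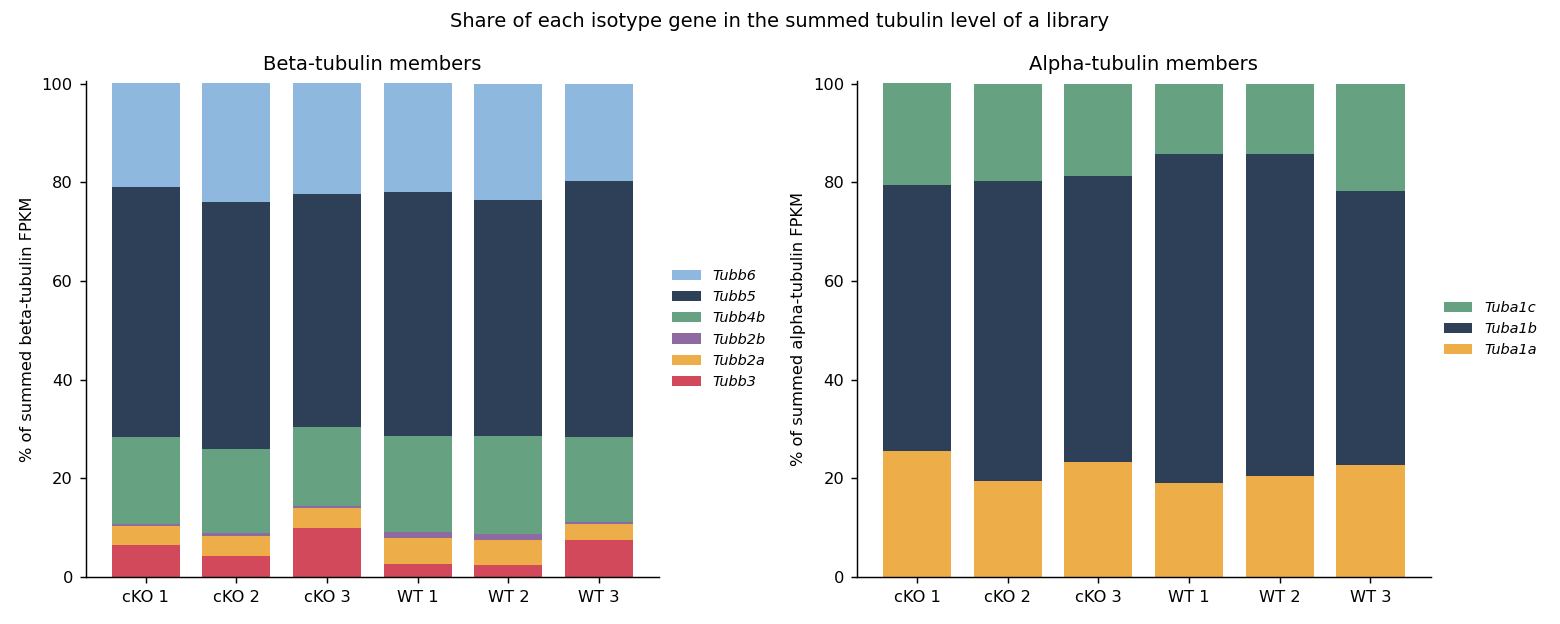
Share of each gene in the summed beta-tubulin (left) and alpha-tubulin (right) FPKM of each library, cKO libraries left of WT libraries. Tubb3, at the foot of the left bars, takes 2.37% to 2.62% in WT replicates 1 and 2 and 4.29% to 10.0% in the other 4 libraries.

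Promoters of 7 of the 10 genes were in the RefSeq table (GRCm38.p6, 250 bases before to 50 bases after the start). Those of Tubb3 and Tubb5 are shown because Tubb3 was the gene whose order over libraries differed and Tubb5 the most abundant beta gene. Tubb3 is at chr8:123411303-123411602 on the + strand and Tubb5 at chr17:35838252-35838551 on the - strand. Both are written 5′ to 3′ in the direction of the gene, and capitals mark matches on either strand to CCAAT (reverse ATTGG), to TATAA (reverse TTATA) and to GGGCGG (reverse CCGCCC).
Tubb3: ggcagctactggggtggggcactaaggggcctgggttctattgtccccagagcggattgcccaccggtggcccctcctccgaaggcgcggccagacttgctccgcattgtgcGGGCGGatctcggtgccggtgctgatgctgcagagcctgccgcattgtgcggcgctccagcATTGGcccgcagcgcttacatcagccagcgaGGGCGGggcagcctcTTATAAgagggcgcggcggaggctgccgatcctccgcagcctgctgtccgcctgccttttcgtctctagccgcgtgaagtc
Tubb5: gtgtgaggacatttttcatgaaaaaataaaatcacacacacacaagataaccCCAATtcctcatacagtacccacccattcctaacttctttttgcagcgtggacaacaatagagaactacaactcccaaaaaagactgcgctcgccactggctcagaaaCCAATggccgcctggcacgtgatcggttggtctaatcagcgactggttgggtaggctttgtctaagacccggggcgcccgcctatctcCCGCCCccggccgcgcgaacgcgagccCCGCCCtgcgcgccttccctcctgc
The Tubb3 window held CCAAT 1 time, GGGCGG 2 times and TATAA 2 times, and its TATAA matches overlapped as 1 site on both strands. The Tubb5 window held CCAAT 2 times, GGGCGG 2 times and TATAA 0 times. Tubb4b held CCAAT 5 times, and Tubb2a and Tuba1b 0 times. TATAA was found in Tubb3, Tubb2a, Tubb4b and Tuba1a and not in Tubb5, Tuba1b or Tuba1c. Of all 32851 windows in the table, 37.4% held CCAAT, 24.9% TATAA and 35.7% GGGCGG. A match describes letters in the window only.

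Other tubulin genes were mostly scarce. Of 11 such genes 7 passed the filter, 0 were called in either direction, and their median log2 difference was -0.09. Tuba4a, a further alpha chain, was at 28.7, 20.9 and 12.1 FPKM in cKO and at 32.2, 18.6 and 21.2 FPKM in WT libraries. Tubg1, the gamma-tubulin that nucleates microtubules, was at 30.8, 25.7 and 26.2 FPKM in cKO libraries, against 39.6, 22.9 and 18.0 FPKM in WT libraries. Tubd1, the delta-tubulin of centrioles, was at 3.74, 3.19 and 5.00 FPKM in cKO libraries, against 4.28, 4.51 and 4.47 FPKM in WT libraries. Tuba8 was at 1.23, 0.632 and 1.10 FPKM in cKO libraries, against 1.67, 1.25 and 1.02 FPKM in WT libraries. Tubb1, the beta chain of platelets, had 1, 0 and 2 fragments in cKO libraries and 0 in each WT library.

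Tuba3a and Tuba3b, the alpha-tubulin genes of male germ cells, separated the libraries in another way. Tuba3a was at 108, 2.96 and 5.94 FPKM in cKO replicates 1, 2 and 3, against 2.47, 3.98 and 56.8 FPKM in WT replicates 1, 2 and 3. Tuba3b was at 117, 1.58 and 5.33 FPKM in cKO and at 2.67, 3.78 and 64.1 FPKM in WT libraries. Only cKO replicate 1 and WT replicate 3 of the 6 libraries were high. The coding sequences of these genes were 97.0% identical, so their split is uncertain. Neither passed the genotype test (limma, adjusted p = 0.958 for Tuba3a and 0.979 for Tuba3b).

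The listed spermatogonia and spermatocyte markers other than Zbtb16 were highest in the same 2 libraries. Zbtb16 did not separate them from the rest, at 0.488, 0.237 and 0.462 FPKM in cKO and at 0.283, 0.194 and 0.428 FPKM in WT libraries. The summed level of 10 spermatogonia and spermatocyte markers, of which 4 passed the filter and 0 were at 0 throughout, was 117, 4.24 and 11.3 FPKM in cKO replicates 1, 2 and 3, against 3.13, 6.94 and 138 FPKM in WT replicates 1, 2 and 3. Ldhc, the lactate dehydrogenase of meiotic and later germ cells, was at 99.3, 2.49 and 3.43 FPKM in cKO and at 4.86, 5.06 and 70.2 FPKM in WT libraries. It is counted here among the spermatid markers. The 14 spermatid markers, with 12 tested, summed to 450.3, 69.7 and 21.2 FPKM in cKO and to 216, 89.5 and 273 FPKM in WT libraries, so WT replicate 1 was also high for these. Smcp, a sperm mitochondrial protein gene, was at 48.0, 5.61 and 1.47 FPKM in cKO and at 56.7, 16.5 and 21.3 FPKM in WT libraries. Their part in the Tuba3a and Tuba3b values was not tested. The 10 genes followed another order, with WT replicate 3 lowest in 9 of them.

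The summed level of genes that fold tubulin varied little between libraries, though single genes on the list varied more. Prefoldin hands new tubulin to the CCT chaperonin, and the tubulin cofactors then assemble the dimer. The 22 genes of this list, TTC5 included, summed to 1101 to 1173 FPKM in cKO and to 1101 to 1139 FPKM in WT libraries, a highest library 1.07 times the lowest, where the 9 tubulins gave 2.13 times. For single genes this ratio was lowest for Cct5, at 1.06 times, and it was 2.63 times for Arl2 and 3.16 times for Pfdn2. It was highest for Pfdn6, which ran from 7.09 FPKM in WT replicate 3 to 28.4 FPKM in cKO replicate 1. Among the 10 tubulin and stathmin genes the ratio was 1.65 to 4.69 times, so single folding genes reached into that range. Of the 22 tested, 0 were called and the median log2 difference was 0.03. Ttc5 was at 7.22, 5.85 and 6.13 FPKM in cKO libraries, against 5.83, 4.79 and 6.23 FPKM in WT libraries, which overlapped.

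The prefoldin subunits Pfdn2, Pfdn6 and Pfdn1 had the lowest p on that list. Pfdn6 was at 28.4, 28.1 and 27.5 FPKM in cKO replicates 1, 2 and 3, against 21.4, 9.54 and 7.09 FPKM in WT replicates 1, 2 and 3, and Pfdn2 was at 17.7, 19.7 and 16.4 FPKM in cKO and at 12.8, 6.25 and 7.93 FPKM in WT libraries. The groups did not overlap in either gene, a pattern with cKO above WT that 6.28% of tested genes showed. The log2 differences were 1.23 with an SE of 0.36 for Pfdn6 and 0.97 with an SE of 0.27 for Pfdn2 (limma, adjusted p = 0.596 and 0.563), so neither passed. Pfdn1 had a log2 difference of 0.76 (limma, adjusted p = 0.727). The other prefoldin subunits on the list had log2 differences of -0.04 for Pfdn4, -0.13 for Vbp1 and 0.17 for Pfdn5.

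Genes that bind microtubules or track their ends had 16 of 23 tested members with a higher mean log2 level in cKO, 69.6%, against 59.8% of all tested genes, and a median log2 difference of 0.28 against 0.08. None of the 23 was called. Their summed level was 277, 271 and 276 FPKM in cKO replicates 1, 2 and 3, against 241, 230.4 and 236 FPKM in WT replicates 1, 2 and 3. The groups did not overlap as deposited, but with median-ratio scaling WT replicate 1, at 263 FPKM, lay above cKO replicate 3, at 261 FPKM. Gas2l1, which links actin to microtubules, was at 28.2, 24.8 and 27.7 FPKM in cKO libraries, against 17.5, 13.2 and 16.6 FPKM in WT libraries (limma, log2 difference 0.74, SE 0.20, adjusted p = 0.545). Camsap1, a minus-end binding protein, had a log2 difference of 0.59, and Map7, which recruits kinesin-1, of 0.72 (limma, adjusted p = 0.755 for both). Without WT replicate 3, 2 of the 116 tested genes of the microtubule lists passed, Map1b and Map7, both higher in cKO. That share, 1.72%, was below the 3.89% of all tested genes called in that fit (2.47% as higher).

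Map1b, a microtubule stabiliser of growing neurites, was at 10.5, 12.7 and 15.2 FPKM in cKO replicates 1, 2 and 3, against 3.68, 5.07 and 15.2 FPKM in WT replicates 1, 2 and 3. Map7 was at 2.37, 2.14 and 2.97 FPKM in cKO libraries, against 0.598, 0.607 and 2.67 FPKM in WT libraries. In both genes WT replicate 3 was level with the cKO libraries. With all 6 libraries Map1b had a log2 difference of 0.82 (limma, adjusted p = 0.772).

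The remaining microtubule lists also had 0 called genes (limma). Of 18 nucleation genes 12 had higher means in cKO, with a median log2 difference of 0.13. Pcnt, the pericentrin scaffold of the centrosome, led them at 2.98, 3.87 and 4.34 FPKM in cKO libraries, against 1.99, 2.67 and 2.55 FPKM in WT libraries (limma, adjusted p = 0.755), and Tubgcp6 and Ninl followed. Tubulin-modifying enzymes had a median of 0.10 over 14 tested genes. Vash1, a carboxypeptidase that removes the terminal tyrosine of alpha-tubulin, was at 2.16, 1.26 and 1.26 FPKM in cKO libraries, against 0.103, 0.237 and 1.10 FPKM in WT libraries (limma, adjusted p = 0.657), and the glutamylase genes Ttll4 and Ttll1 had log2 differences of 0.54 and -0.50. Motor genes had a median of 0.09 over 26 tested genes, led by the dynein light chain Dynlt1b at 0.97 (limma, adjusted p = 0.730), with Dync1i1 at 0.80 and Klc2 at 0.47. Severing enzymes had a median of 0.02 over 6 tested genes, with Fignl1 at 0.13, Katna1 at -0.09 and Katnal1 at 0.09.

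The summed cell cycle and myoid lists were, like the summed tubulins, lowest in WT replicate 3 and high in WT replicates 1 and 2. The 24 cell cycle genes, all tested, summed to 597, 717 and 850.3 FPKM in cKO replicates 1, 2 and 3, against 962, 977 and 456 FPKM in WT replicates 1, 2 and 3. Most single genes of that list were lowest in WT replicate 3. Top2a was instead lowest in WT replicate 1, and Mcm4, Bub1, Cenpe and Cenpf were lowest in cKO replicate 1. Some, such as Mki67, were highest in cKO replicate 3. The 7 markers of peritubular myoid cells, the contractile cells around the tubule, were all tested and summed to 835, 959 and 1534 FPKM in cKO and to 3684, 2882 and 598 FPKM in WT libraries. Acta2, the smooth muscle actin, carried most of that sum, while Myh11, the smooth muscle myosin heavy chain, and Des, desmin, were higher in WT replicate 3 than in either other WT library. The 15 macrophage markers, with 14 tested, summed to 356, 196 and 266 FPKM in cKO and to 1353, 1099.5 and 332 FPKM in WT libraries. Lyz2 gave much of that sum, at 648 and 577 FPKM in WT replicates 1 and 2. Cd14 and Ptprc were instead highest in cKO replicate 2, and Cd74 in WT replicate 3. The other macrophage markers were highest in WT replicate 1 or 2. In the sums of these 3 lists WT replicates 1 and 2 were the highest libraries. WT replicate 3 was the lowest for the cell cycle and myoid sums, as for the tubulin sum, but not for the macrophage sum. No marker of these lists was at 0 in all 6 libraries, and their part in the tubulin values was not tested.

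The 10 fibroblast markers, with 9 tested, summed to 723 to 1137 FPKM in cKO and to 655 to 1346 FPKM in WT libraries. WT replicate 3 was lowest for that sum, to which the collagen genes Col1a1 and Col1a2 gave much. Of the single genes on the list, only Col1a1, Col1a2 and Dpt were lowest in WT replicate 3. Dcn was instead highest in WT replicate 3 and lowest in WT replicate 1. The 12 endothelial markers, with 9 tested, summed to 107 to 180.3 FPKM in cKO and to 103 to 126 FPKM in WT libraries, mostly from Eng and Cdh5. Of the 9 tested, 8 had higher means in cKO, with a median log2 difference of 0.96. None was called with all 6 libraries (limma). Without WT replicate 3, 3 were called, where 3.89% of all tested genes were (2.47% as higher). Other lists also had calls in that fit: 9 of 19 tested Sertoli, 4 of 14 macrophage, 3 of 7 myoid, 2 of 9 fibroblast, 2 of 5 Leydig and 1 of 1 nerve cell markers. The cell cycle, spermatid, and spermatogonia and spermatocyte lists had 0. The median log2 difference there was -1.66 for macrophage, -1.54 for myoid, -0.61 for fibroblast and -1.42 for Leydig markers. It was 1.07 for Sertoli markers. Of all tested genes, 1.42% were called as lower in that fit. Pecam1, an adhesion molecule of endothelial cells, was at 7.99, 2.49 and 3.52 FPKM in cKO libraries, against 0.317, 0.263 and 6.43 FPKM in WT libraries. It was thus lowest in WT replicates 1 and 2, where Tubb3 was lowest too. Eng was instead highest in WT replicate 1 and lowest in WT replicate 3. It was at 73.3, 44.6 and 46.0 FPKM in cKO and at 88.7, 72.8 and 36.1 FPKM in WT libraries. The part of these markers in the Tubb3 values was not tested. The 8 Leydig cell markers, with 5 tested, summed to 143 to 243 FPKM in cKO and to 200.4 to 375 FPKM in WT libraries. They did not share 1 order. Star was at 77.0, 55.5 and 58.6 FPKM in cKO and at 29.7, 22.8 and 94.2 FPKM in WT libraries. Hsd3b1 was at 18.7, 11.6 and 11.6 FPKM in cKO and at 139, 79.8 and 8.99 FPKM in WT libraries. WT replicate 3 was the lowest library for the endothelial list by a narrow margin, and cKO replicate 3 for the Leydig list.

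**Figure D4:**
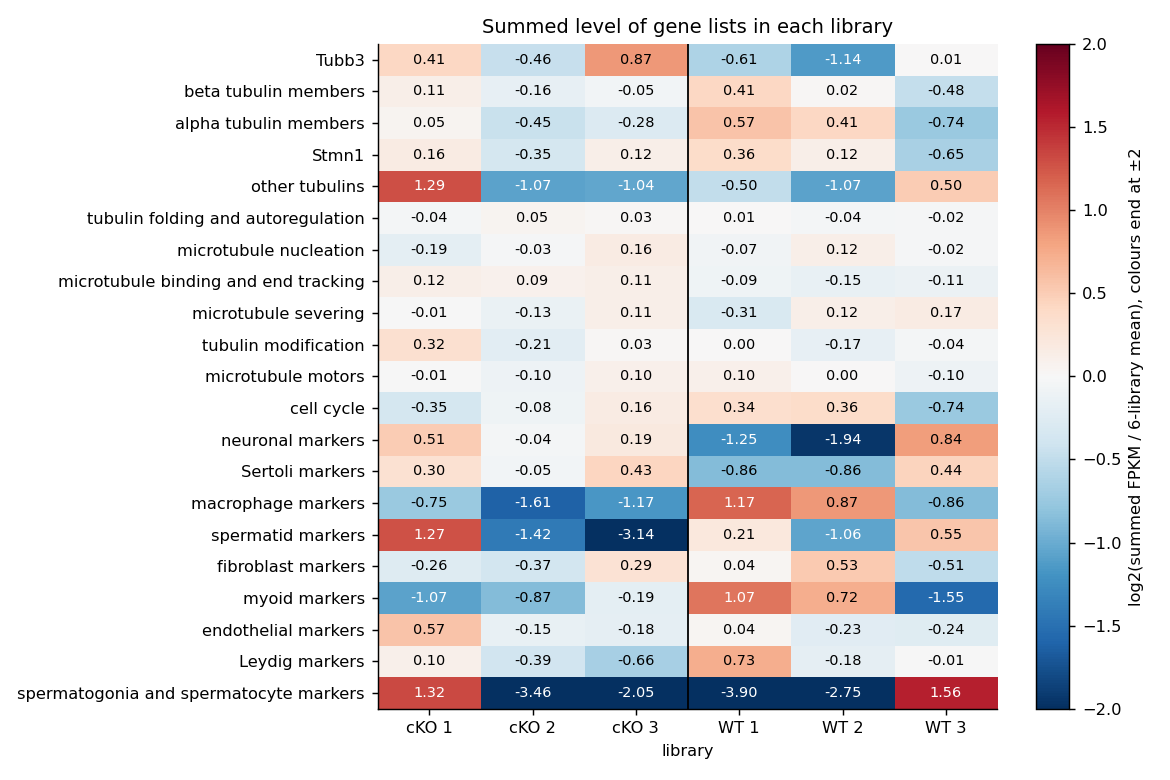
Log2 of the summed FPKM of each list in a library over its mean in the 6 libraries, cKO libraries left of WT libraries. The rows of the beta and alpha sums, Stmn1, the cell cycle and the myoid markers are lowest in WT replicate 3, from -0.48 to -1.55, while the folding list stays within 0.05 of its mean.

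Genes outside these lists whose profile over the 6 libraries was most like the 9 summed tubulins were sought among 10976 tested genes by the root mean square difference of mean-centred log2(FPKM + 1). They were Ccnd3, a D-type cyclin, Anapc11, a subunit of the anaphase-promoting complex, Zbtb45, Yif1b and Mtch1, at 0.0419 to 0.0651 on the log2 scale, where the tubulin profile itself had a root mean square of 0.356. Ccnd3 was at 26.1, 19.2 and 21.3 FPKM in cKO libraries, against 34.0, 30.3 and 15.2 FPKM in WT libraries. Nearest to Stmn1 were Scrn2, P3h4, Kdm8, Cacng7 and Pla2g15, at 0.0468 to 0.0839. Nearest to Tubb3 were Mfsd13a, Ldhd, Jup, St3gal5 and Efs, at 0.101 to 0.197, against 0.657 for Tubb3 itself. Jup, the junction protein plakoglobin, was at 4.75, 1.78 and 5.63 FPKM in cKO libraries, against 1.53, 1.33 and 2.96 FPKM in WT libraries.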

How the data were processed

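RNA-seq values of 6 libraries, 3 per genotype, were used. Groups came from the genotype label and replicate numbers from the titles. FastQC, HISAT2 2.1.0 and build mm8 are named per the submitters' processing notes. The sources used here do not state a counting tool, gene annotation or strandedness. The deposited unit was taken from the values as FPKM: value times exonic length (GENCODE M21) was a whole multiple of 1 library-specific unit for 99.0% to 99.5% of single-exon values of up to 10 fragments, within 0.02 times the fragment number. Of 29275 identifiers 28932 matched a symbol.

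The 12284 genes that reached 1 FPKM in 3 or more libraries were fitted as log2(FPKM + 1) with genotype as the only term (limma 3.58.1 in R 4.3.3, eBayes with trend, two-sided, Benjamini-Hochberg over all genes, threshold 0.05) (a scale that understates changes of low genes). Genes under the filter came from a fit over all genes. Sums and shares were compared by exact permutation of libraries. The fit was tested on simulated data. Tables and figures used Python 3.11.15. Without a stated strand, overlapping antisense genes are not told apart. The coding ends of the alpha genes are not reported here. The members and lists were chosen with earlier results of these data known. Named genes were the members, up to 3 genes per list with the smallest p, and the 5 nearest profiles to the tubulin sum and to Stmn1. The profiles nearest to Tubb3, and Uchl1, Rbfox3, Ttc5, Tubg1, Tuba3a, Tuba3b, Tubb1, Map1b, Ldhc, Nefm, Smcp, Myh11, Des, Arl2, Pecam1, Eng, Cdh5, Clu, Inhbb, Acta2, Cct5, Pfdn4, Pfdn5 and Vbp1, were added after their values were seen. So were Top2a, Mcm4, Bub1, Cenpe, Cenpf, Col1a1, Col1a2, Dpt, Dcn, Lyz2, Cd14, Cd74, Ptprc, Star and Zbtb16.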

Additional observations from a re-analysis of the deposited data

How the results depend on the processing

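Gene differences and counts of calls were recomputed without a filter, at 5 FPKM, with pseudocounts 0.1 and 5, by median-ratio or quantile scaling, with array weights (a fit that stopped before its convergence tolerance), with a replicate block and leaving out single libraries. Sums were recomputed by median-ratio scaling, and sums and shares with pseudogene copies added and leaving out single libraries. The scalings of the library order and of the binding list were chosen after seeing the data. No gene of the 10 passed in any alternative other than Tubb2b without WT replicate 3 (-1.49, adjusted p = 0.0174). With a library left out, the number of the 10 that passed was thus 0 to 1, that of pathway genes 0 to 2, and that of all genes 0 to 478. The count of all genes was 2 with all 6 libraries and 0 without the filter and under the replicate block. Replicate numbers did not pair the libraries: the correlation of deviations was 0.138, 0.0322 and -0.206 for numbers 1, 2 and 3. The block changed no call on the 10 genes.

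Differences near 0 turned sign. Under quantile normalization Tubb4b was at 0.05, Tubb5 at 0.15, Tuba1a at 0.06 and Tuba1c at 0.14. Tubb6 was at -0.03 and Stmn1 at -0.04 under median-ratio scaling, and they were at -0.03 and -0.11 with array weights. The gap of the binding list was 30.8 FPKM as deposited and -2.65 FPKM with median-ratio scaling. When single libraries were left out, the difference on the log2 scale ran from -0.24 to 0.20 for the beta sum, -0.48 to 0.07 for all tubulins, -0.65 to 0.12 for Tubb2a, -1.49 to -0.48 for Tubb2b, -0.46 to 0.07 for Tubb4b, -0.23 to 0.18 for Tubb5, -0.25 to 0.26 for Tubb6, -0.52 to 0.04 for Tuba1a, -0.25 to 0.10 for Tuba1c and -0.26 to 0.23 for Stmn1. The share difference ran from -1.39 to 0.599 percentage points for Tubb5 and -0.182 to 1.68 for Tubb6. The cause of these turns was not tested. Tubb3, Tubb2b, Tuba1b, the alpha sum and the other 7 shares kept their direction in all alternatives run for them, but moved in size: with a library left out, Tubb3 ran from 0.55 to 1.20, Tuba1b from -0.91 to -0.13 and the alpha sum from -0.72 to -0.06, and the share differences from 1.27 to 4.44 points for Tubb3, -1.32 to -0.296 for Tubb2a, -0.739 to -0.370 for Tubb2b, -2.79 to -1.46 for Tubb4b, 0.606 to 3.64 for Tuba1a, -8.38 to -2.88 for Tuba1b and 1.69 to 5.43 for Tuba1c.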
